A study of Rattus norvegicus with 9 samples.

Results

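The effect of tolterodine in the obstructed rat bladder was examined as the difference between the 3 arrays titled pBOO + tolterodine and the 3 arrays titled pBOO, which are 6 of the 9 arrays of the series. Both groups are bladder RNA of female rats at 3 weeks. In both, partial bladder outlet obstruction (pBOO) came from a ligature of the proximal urethra around a catheter of 1 mm outer diameter. The groups therefore share the operation and, by the titles, differ in the drug. The remaining 3 arrays, titled sham, carry RNA of rats operated on without the tie, and they enter here through the estimate of the spread and as levels set beside the comparison. The sources used here do not give the strain or age of the rats, or the dose, route and timing of tolterodine. The labels name 5 specimens per group and leave unsaid whether an array holds RNA of 1 rat or of several, so all p-values measure the spread between these arrays.

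Some limits apply to every direction below. The treatment protocol calls obstruction the S group and sham operation the C group, while the codes of the arrays use C for those titled pBOO and S for those titled sham. The letter B stands for obstruction with tolterodine in both. The titles were followed, and each sign rests on them. The groups also share no slide. Arrays with the same scan time were taken as 1 slide: scan 2 held all 3 pBOO arrays with sham 1, scan 1 held tolterodine 1 and 2 with sham 2 and 3, and tolterodine 3 was scanned alone. Slide and drug can therefore be compared only through the sham arrays.

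Tolterodine blocks muscarinic acetylcholine receptors and is given for overactive bladder. Acetylcholine from parasympathetic nerves contracts the detrusor, the smooth muscle of the bladder wall, mainly through the M3 receptor, whereas noradrenaline relaxes it through β-adrenoceptors. The wall is lined on the inside by the urothelium, whose basal cells make keratins such as Krt5 and Krt14 and whose umbrella cells make Krt20 and uroplakins. Stroma, vessels and nerves lie between the urothelium and the muscle.

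Levels are log2 signals minus the array's 75th percentile, so a level of 0 is that percentile. The 75th percentile itself ran from 523 to 1441 intensity units across the 9 arrays, with tolterodine 3 the dimmest, and 72.1% to 80.1% of spots were well above background. Within the pBOO and tolterodine groups the arrays lay close. The median Pearson correlation across genes was 0.993 between pBOO arrays and 0.985 between tolterodine arrays, against 0.925 between the groups. The sham arrays were less alike: the pair of sham 2 and 3 reached 0.994, whereas sham 1 gave 0.966 and 0.976 with them. With tolterodine 1, 2 and 3 sham 1 gave 0.973, 0.966 and 0.968, which all lay between those. By genes 2-fold apart, sham 1 was nearer to sham 2 and 3 (880 and 599) than to tolterodine 1, 2 and 3 (1038, 1298 and 1294). Median correlations to sham arrays were 0.9565 for tolterodine arrays and 0.9328 for pBOO arrays. Genes are not independent replicates, so these values describe the arrays. Defining markers of the labelled tissue were present on all 9 arrays, among them the smooth muscle genes Acta2 and Myh11 and the urothelial genes Upk1b and Krt5.

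Many genes of inflammation, of leukocytes, of cell division, of the antioxidant response and of epithelial defence were higher with tolterodine, and genes of contractile smooth muscle and of its ion channels were lower. Of 11049 genes tested, 4564 (41.3%) differed: 2872 (26.0%) were higher and 1692 (15.3%) were lower on the tolterodine arrays in limma's moderated test, at a Benjamini-Hochberg adjusted p under 0.05. Below, "rose" and "fell" are used of genes past that threshold only, and differences are log2 values, tolterodine minus pBOO. Each count of a list below is to be read against the shares of all genes, 26.0% and 15.3%. At least 2-fold differences made up 1815 of the calls (16.4% of genes). At least 4-fold, 284 genes (2.57%) rose and 183 (1.66%) fell. In bulk tissue, fewer cells of a type and less RNA per cell cannot be told apart.

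The median difference of all genes was 0.11, and the share of calls that were higher, 62.9%, depends on how arrays are aligned. It was 52.6% after quantile normalization and 52.1% after normexp with quantile normalization, which moved the median of all genes to 0.00822 and 0.00505. Differences of about 0.1 are therefore not told apart from the alignment of the arrays, and the shift of a single gene can be larger. After quantile normalization Cdkn1a went from 0.16 to -0.18. In that setting 25 of 54 list medians moved by more than the list's mean SD between arrays of a group. The groups did not overlap for 6483 genes (58.7%), 4054 (36.7%) higher and 2429 (22.0%) lower, against which each gene without overlap below is to be read. The share of genes that rose ran from 23.5% to 28.4% from one level class to another, with the genes in 4 classes of equal size, and the share that fell from 12.1% to 17.7%.

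**Figure D1:**
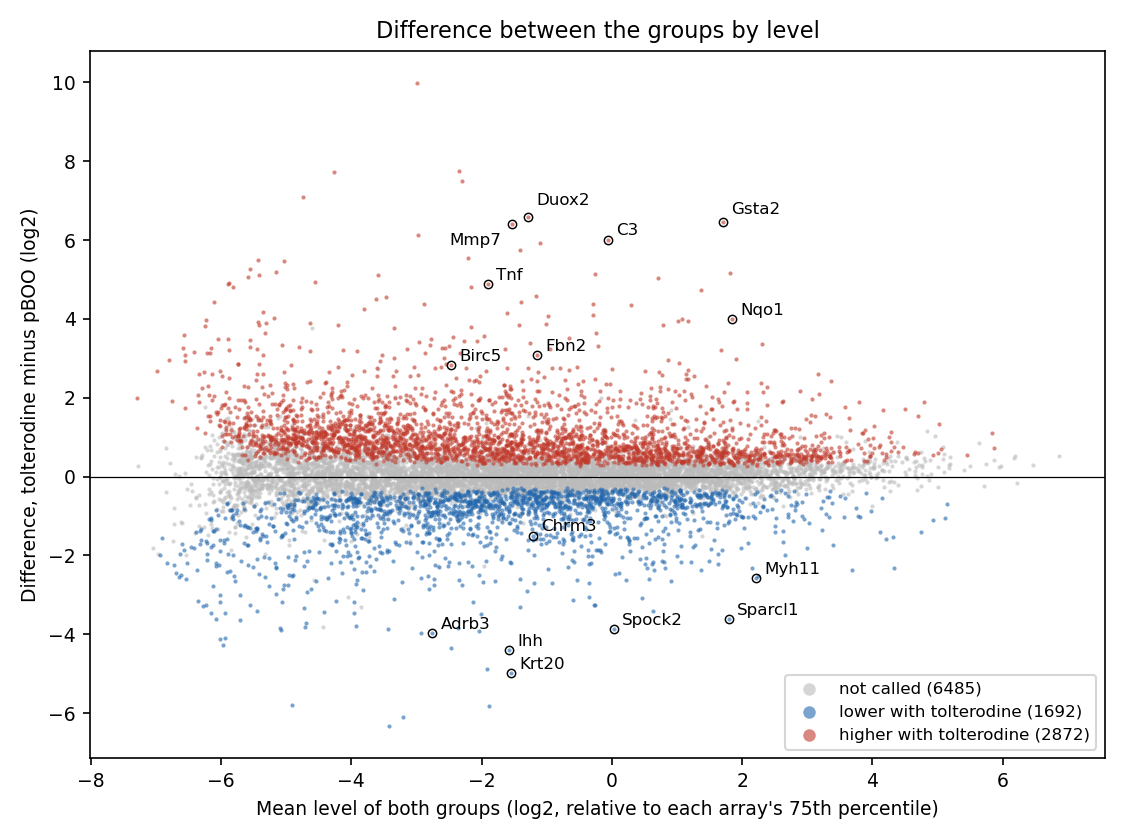
Difference between the groups (tolterodine minus pBOO, log2) against the mean level of both groups (log2, relative to each array's 75th percentile), 1 point per gene of 11049. Red points are the 2872 genes that were higher, blue points the 1692 that were lower, and both occur at all levels; genes at background in 1 group are drawn at their fitted difference, which is no measured fold.

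The genes with the largest rises include genes of mucosal defence, detoxification and innate immunity. The largest rises and falls were taken from called genes whose groups did not overlap. Lack of overlap among them therefore follows from that choice. Duox2, an oxidase that makes hydrogen peroxide at epithelial surfaces, had levels of 2.06, 1.93 and 2.02 on the tolterodine arrays and of -4.65, -4.55 and -4.51 on the pBOO arrays. The difference was 6.58 (SE 0.26, adjusted p = 1.54e-06). On the sham arrays Duox2 stood at 2.78, 1.56 and 2.07, values that span the tolterodine levels. Its maturation factor Duoxa2 was above background on all 3 tolterodine arrays and on 0 of 3 pBOO arrays, and was at least 182-fold higher. Such bounds set the mean of one group against the lowest level called above background on the other arrays. Mmp7, a matrix metalloproteinase made by epithelia, rose by 6.41 (SE 0.26), and complement component C3 by 6.01 (SE 0.30). Among enzymes that couple glutathione to toxic compounds, Gsta2 rose by 6.46 (SE 0.25) and Gsta5 by 5.17 (SE 0.26). These are close copies of one another, so their probes may share signal. Against the sham arrays Mmp7 and C3 differed by -0.51 and 0.25 and were not called, while Gsta2 and Gsta5 were each higher by 2.28.

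Further rises of this size were those of Tspan1 (5.93), a tetraspanin of epithelia, Clca1 (5.74), a secreted protein of mucus-making cells, Fam111a (5.54), a protease that restricts viruses, Ubd (5.13), a ubiquitin-like modifier induced by cytokines, and C3h15orf48 (5.04). Against the sham arrays Tspan1, Ubd and C3h15orf48 differed by 0.50, -0.47 and 0.41 and were not called. Clca1 and Fam111a were higher than on the sham arrays, by 1.35 and 2.73. A total of 118 genes were above background on every tolterodine array and on no pBOO array. The highest bounds among them were those of Clca4l, at least 265-fold, of Duoxa2, given above, of Vnn3, at least 67.1-fold, of Serpinb10, at least 49.9-fold, and of Ly6d, a surface protein of squamous epithelium, at least 28.9-fold. For Clca4l, 1 of 3 sham arrays was above background as well, and for Duoxa2, Vnn3, Serpinb10 and Ly6d all 3 were.

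The genes with the largest falls include markers of the umbrella cells, of nerve and of stroma. Krt20, the keratin of umbrella cells, had levels of -4.02, -4.32 and -3.77 with tolterodine and of 0.26, 1.49 and 1.05 on the pBOO arrays. Krt20 fell by 4.98 (SE 0.76, adjusted p = 0.00113). Ihh, the hedgehog ligand, fell by 4.40 (SE 0.59), and Stmn2, a microtubule regulator of neurons, by 4.87 (SE 1.08). Other falls were those of Adrb3 (-3.97), Asic4 (-3.96), an acid-sensing channel family member, Ngb (-3.91), a globin of neurons, Spock2 (-3.87), a matrix proteoglycan, Mcpt9 (-3.85), a mast cell protease, and Sparcl1 (-3.61), a matrix glycoprotein. A total of 108 genes were above background on every pBOO array and on no tolterodine array. Among them Vch was at least 13.9-fold lower, Plppr3 at least 8.05-fold and Ntf3, a neurotrophin, at least 6.18-fold. Obp3 was at least 7.91-fold lower, but its pBOO levels of -1.09, -5.25 and -2.17 spread widely. Obp3 was above background on no sham array, so it passed the filter only through the pBOO arrays.

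The sham arrays were uneven for these falls. In 12 of the 12 largest falls sham 1 lay more than 2-fold below both sham 2 and sham 3, which was so for 4.18% of all genes. Krt20, for example, stood at -1.94 on sham 1 and at 1.31 and 1.05 on sham 2 and 3. Sham 1 was scanned with the pBOO arrays, and its level for Adrb3, -5.27, was near those of the tolterodine arrays rather than those of the pBOO arrays beside it. The part of slide, scan or specimen in these values was not tested.

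Of the muscarinic receptors the drug blocks, Chrm3 fell and Chrm2 was not called. Chrm3, which encodes the M3 receptor, had levels of -1.92, -1.87 and -2.10 with tolterodine and of -0.19, -0.82 and -0.38 on the pBOO arrays. The groups did not overlap, and Chrm3 fell by 1.50 (SE 0.20; adjusted p = 0.000586). It stood at -3.06, -2.46 and -2.61 on the sham arrays, below both other groups. Chrm2, the M2 receptor, had levels of -4.05, -3.69 and -4.32 with tolterodine and of -4.04, -4.07 and -3.86 without, a difference of -0.03 (SE 0.20; adjusted p = 0.907), with the groups overlapping. Another probe of Chrm2 differed by -0.68. Chrm4 rose by 0.69 (SE 0.23; adjusted p = 0.0418), a call that was lost under 10 alternatives, among them leaving out tolterodine 1, tolterodine 3, pBOO 1 or pBOO 2, at 0.55 to 0.73. Chrm4 turned to -0.17 with slide as a fixed block. Chrm5 was above background on 1 of 3 tolterodine arrays and on 0 of 3 pBOO arrays, and Chrm1 was not measured here.

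Of 19 measured genes of muscarinic signalling and acetylcholine handling, 3 rose and 7 fell. Downstream of the M3 receptor, the G protein subunit Gnaq fell by 0.95 and the phospholipase Plcb4 fell by 1.31. Rgs2, which shortens the signal of that G protein, fell by 1.96 (SE 0.24; adjusted p = 0.000313). The enzymes that break down acetylcholine and related esters were lower: Ache, above background on 3 of 3 pBOO arrays and on none with tolterodine, was at least 1.18-fold lower. Bche was above background on 1 of 3 tolterodine arrays and on 3 of 3 pBOO arrays, with levels of -5.95, -5.66 and -5.86 against -2.26, -3.12 and -2.59. The nicotinic receptor subunit Chrnb4 rose by 1.01.

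The title of the series concerns β-adrenoceptors and the extracellular matrix. Adrb3, whose receptor relaxes the detrusor, fell with tolterodine. Its levels were -4.88, -4.63 and -4.73 with tolterodine and -0.45, -1.17 and -0.70 on the pBOO arrays, with no overlap and a difference of -3.97 (SE 0.67; adjusted p = 0.00191). Adrb1 differed by 0.53 (SE 0.29; adjusted p = 0.17), and its groups overlapped. Without tolterodine 3 the difference was 0.88, past the threshold. The α1-adrenoceptors, which contract smooth muscle, went both ways. Adra1a rose by 1.39 (SE 0.15; adjusted p = 0.000151), from -1.88, -1.37 and -1.77 to -0.25, -0.23 and -0.37. Adra1d fell by 1.33 (SE 0.27; adjusted p = 0.00461). Adra1b was above background on 1 of 3 tolterodine arrays and on all 3 pBOO arrays, and its call was lost without tolterodine 1, tolterodine 2 or pBOO 1. Both β-arrestin genes, whose products end receptor signalling, rose, Arrb2 by 1.11 and Arrb1 by 0.75. In the whole list of adrenoceptors and cyclic AMP signalling, 6 of 21 measured genes rose (28.6%) and 5 fell (23.8%). Of all genes tested, 26.0% rose and 15.3% fell.

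**Figure D2:**
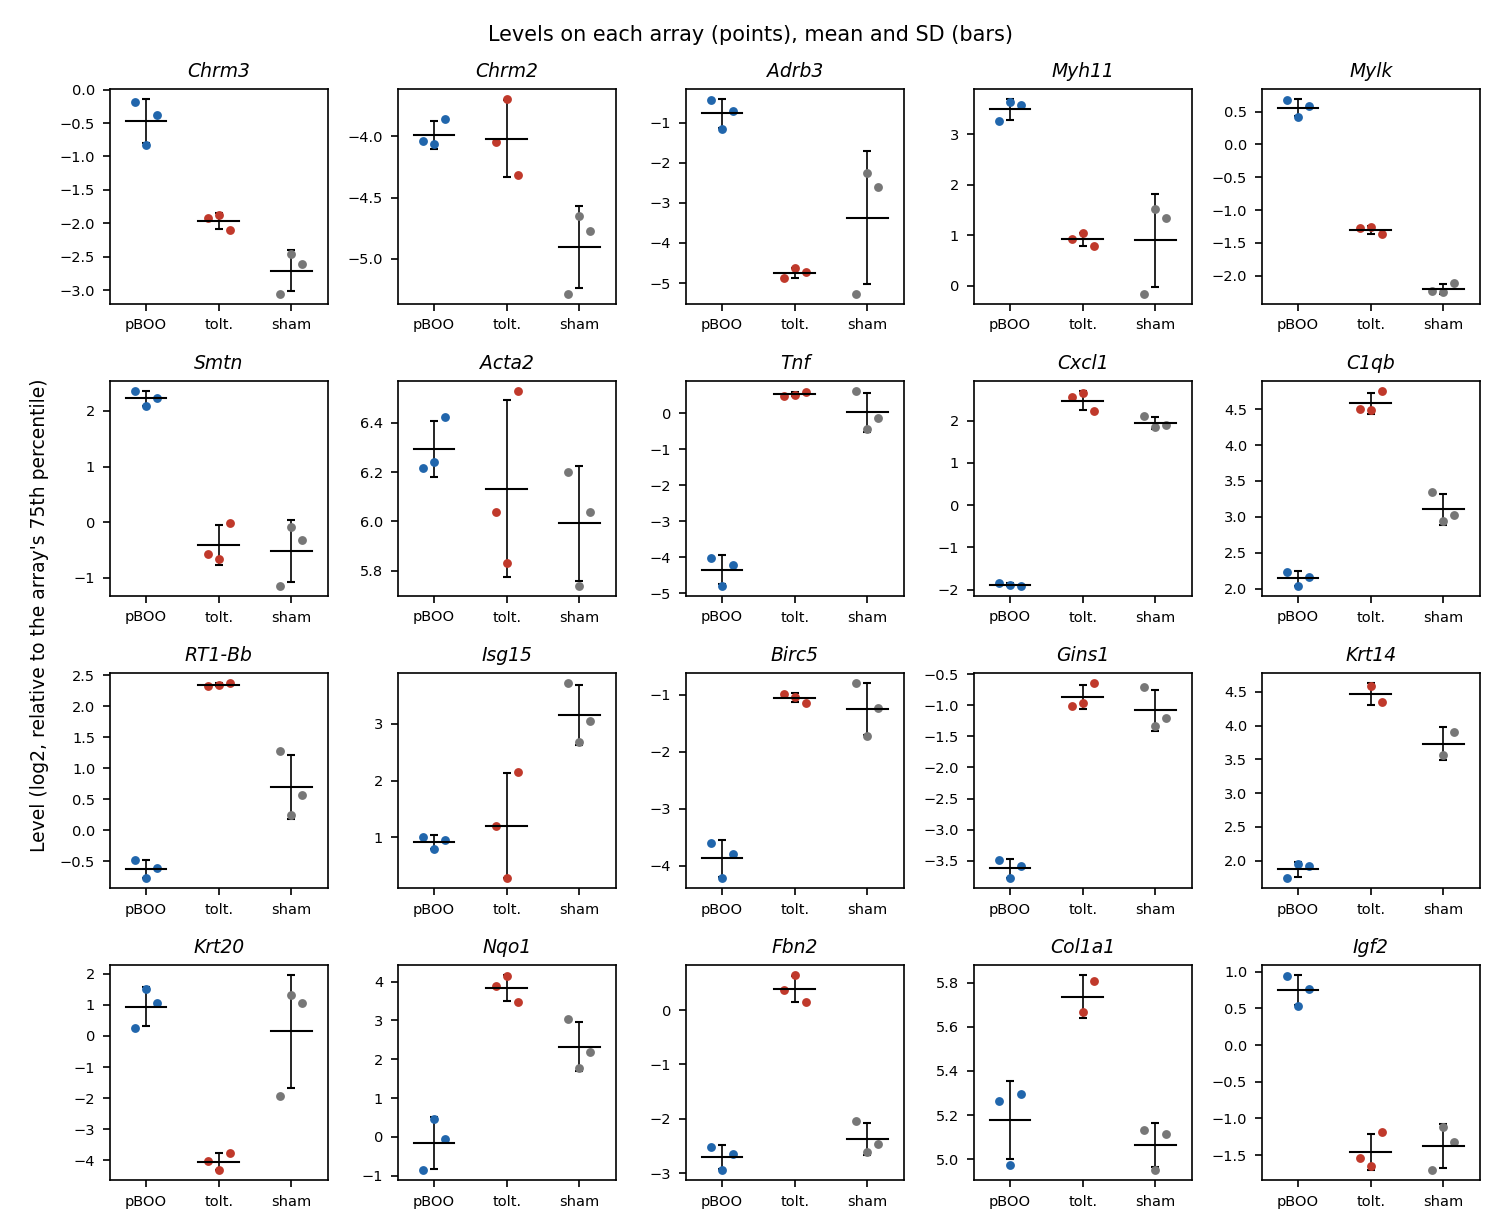
Levels of 20 genes on each array (log2, relative to the array's 75th percentile), with 1 point per array, the group mean as a line and the SD as a bar, for pBOO (blue), pBOO + tolterodine (red, "tolt.") and sham (grey). Each panel has its own vertical axis. Chrm3, Adrb3, Myh11, Mylk and Smtn are lower on every tolterodine array than on every pBOO array, Tnf, Cxcl1, C1qb, Birc5, Gins1, Krt14, Nqo1 and Fbn2 are higher, and Chrm2, Acta2 and Isg15 overlap.

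Contractile genes of smooth muscle were lower with tolterodine, while the actin gene Acta2 was not called. In the list of thin filament genes and the calponin family, 8 of 10 measured genes fell and 0 rose, with a median of -1.26. In the list of the myosin motor and its light chain control, 9 of 11 fell and 0 rose, with a median of -1.41. Smtn, an actin-binding protein of contractile cells, had levels of -0.57, -0.67 and -0.01 against 2.36, 2.08 and 2.24, and fell by 2.64 (SE 0.28; adjusted p = 0.000149). Lmod1, which starts actin filaments, fell by 2.69 (SE 0.23). Myh11, the smooth muscle myosin heavy chain, had levels of 0.92, 1.05 and 0.79 against 3.26, 3.64 and 3.58, and fell by 2.57 (SE 0.38; adjusted p = 0.00101). The groups did not overlap for Smtn, Lmod1 or Myh11.

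The enzymes that set myosin light chain phosphorylation fell on both sides of the balance. Besides the kinase Mylk, the targeting subunit of the opposing phosphatase, Ppp1r12a, fell by 2.03 (SE 0.10), and the phosphatase inhibitor Ppp1r14a fell by 1.41. Prkg1, the cyclic GMP-dependent kinase that relaxes smooth muscle, fell by 2.33. Acta2, the smooth muscle actin, had levels of 6.04, 5.83 and 6.53 against 6.22, 6.24 and 6.42, which overlap, and a difference of -0.16 (SE 0.19; adjusted p = 0.535). With flagged spots kept, which brought back some very bright genes, the γ-actin Actg2 differed by 0.12 (adjusted p = 0.672) and desmin, Des, by -0.22 (adjusted p = 0.402). Under the same setting, in which 26.6% of 11638 genes rose and 15.3% fell, Tagln fell by 0.88, Tpm2 by 0.57 and Flna by 1.61. Actc1 and Myl6 differed by 0.66 and 0.23 there and were not called. Of 16 thin filament genes measured in that setting, 11 fell and 0 rose, with a median of -0.84. Of 12 genes of the myosin list, 9 fell and 0 rose, with a median of -1.36.

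Regulators of the contractile programme were lower or not called. Of 10 measured transcription factors and their partners, 6 fell and 0 rose. Srf, the factor that binds contractile gene promoters, fell by 1.38 (SE 0.18; adjusted p = 0.000525). Among calcium and potassium channels and pumps, 11 of 18 fell and 0 rose, with a median of -0.96. Cacna1c, the L-type calcium channel through which detrusor muscle takes up calcium, had levels of -2.99, -2.99 and -3.05 against -0.38, -1.39 and -0.85, and fell by 2.14 (SE 0.22; adjusted p = 0.000136). The calcium pump Atp2b4 fell by 2.50, the pump regulator Pln by 2.36 and Kcnmb1, a subunit of the large-conductance potassium channel, by 1.43. Kcnma1, the pore of that channel, differed by 1.03 and was not called. Its 3 probes disagree, with differences from -1.79 to 1.03.

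Genes that tie muscle cells to the matrix and to one another were mixed. Of 11 integrin and focal adhesion genes, 7 fell and 3 rose. Itga7, a laminin receptor chain of muscle, fell by 2.74 (SE 0.14), and Itga8 rose by 1.49. Among gap junction genes, Gjc1, the connexin of smooth muscle, fell by 2.20 (SE 0.21), while the epithelial connexins Gjb2 and Gjb5 rose by 2.34 and 1.43 and the widespread connexin Gja1 by 0.78. The receptor for ATP released by bladder nerves, P2rx1, fell by 2.36 (SE 0.23), and the tachykinin receptor Tacr2, which contracts the detrusor, fell by 2.61 (SE 0.40). Gucy1b1, a subunit of the nitric oxide receptor that relaxes smooth muscle, fell by 1.73. Markers of smooth muscle cells as a whole, many of which stand in the lists above, fell in 8 of 9 cases and rose in 0, with a median of -1.73. With flagged spots kept, 8 of 11 fell and 0 rose, with a median of -1.39. The mean level of that list ran from 0.33 to 0.46 on the tolterodine arrays, from 1.77 to 2.17 on the pBOO arrays and from -0.30 to 0.06 on the sham arrays.

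Inflammatory mediators were higher with tolterodine. Of 14 measured genes of the interleukin-1 family and the inflammasome, 12 rose and 1 fell, with a median of 1.48. Il1b, a cytokine made by activated myeloid cells, had levels of 1.22, 1.12 and 0.95 with tolterodine and of -2.46, -2.39 and -2.41 without, and rose by 3.51 (SE 0.18; adjusted p = 3.4e-06). Its decoy receptor Il1r2 rose by 4.43 (SE 0.21) and its receptor antagonist Il1rn by 1.44. Casp1 and Pycard, which process the cytokine, rose by 1.50 and 1.51. Il33, an alarm signal of stromal and epithelial cells, was the member that fell, by 1.00. The call of Il33 was lost with slide as a random block, at -0.34, and without any 1 of 5 of the 6 arrays, all but pBOO 3, at -1.10 to -0.89, and it turned to 0.079 with slide as a fixed block.

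Of 14 genes of NF-kB feedback and Toll-like receptors, 10 rose and 0 fell, with a median of 1.26. Tnf had levels of 0.50, 0.51 and 0.59 against -4.00, -4.80 and -4.22, and rose by 4.87 (SE 0.28; adjusted p = 6.95e-06). Nfkbia, the inhibitor that NF-kB itself induces, rose by 1.35 (SE 0.12), and the survival factor Birc3 rose by 2.66 (SE 0.24). Il6 was above background on 3 of 3 tolterodine arrays and on 0 of 3 pBOO arrays, and was at least 3.30-fold higher. The NF-kB subunit Rela differed by -0.38 and was not called. On the sham arrays Tnf stood at 0.63, -0.43 and -0.12 and Il1b at 1.48, 0.78 and 0.95, near the tolterodine levels and far above those titled pBOO.

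Chemokines, which draw leukocytes into tissue, rose in 15 of 19 measured cases and fell in 2, with a median of 1.82. Promoters of the neutrophil attractants Cxcl1 and Cxcl2 are shown because both rose strongly and their windows hold the NF-kB site, set in capitals; the bases are from RefSeq, rat build GRCr8, chr14:17479386-17479485 and chr14:17467309-17467408, both on the minus strand and upstream of the annotated start.
Cxcl1: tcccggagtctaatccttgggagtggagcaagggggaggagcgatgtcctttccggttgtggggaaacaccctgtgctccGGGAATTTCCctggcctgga
Cxcl2: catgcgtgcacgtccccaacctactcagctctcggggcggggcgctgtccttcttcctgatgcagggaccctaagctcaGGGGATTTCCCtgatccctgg
Cxcl1 stood at 2.56, 2.66 and 2.22 with tolterodine and at -1.85, -1.88 and -1.92 without. Cxcl2 stood at 1.60, 1.61 and 1.55 against -1.75, -2.40 and -2.05, and rose by 3.65 (SE 0.16; adjusted p = 1.7e-06). Neither gene's groups came near to overlap. Over windows from 250 bases before to 50 after the start, on both strands, 6 of the 14 chemokine promoters on hand held the site (42.9%), against 6.3% of the promoters of 9034 tested genes. The 6 are those of Ccl7, Ccl20, Cxcl1, Cxcl2, Cxcl6 and Cxcl10. In Cxcl2 the capitals cover 2 overlapping matches. Among tested genes with a promoter on hand, the site was in 6.99% of those that rose and in 6.51% of those that fell. A match is a run of letters and shows no binding.

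Ccl20 and Cxcl6 were above background on every tolterodine array and on no pBOO array, at least 4.42-fold and at least 13.4-fold higher. Ccl3, an attractant of monocytes, rose by 3.28 (SE 0.18), and Ccl2 by 2.17. Cxcl9, an attractant of T cells that interferon induces, rose by 0.94. The members that fell were Ccl11, the eosinophil attractant eotaxin, by 2.19 (SE 0.39), and Ccl19, which guides lymphocytes and dendritic cells, by 1.40.

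Markers of myeloid cells were higher on the same arrays. Of 16 measured macrophage and monocyte markers, 15 rose and 0 fell, with a median of 1.88, and the mean level of the list ran from -0.28 to 0.09 on the tolterodine arrays and from -1.92 to -1.85 on the pBOO arrays. Aif1 and Msr1 each rose by 1.88, and Mrc1, a mannose receptor of tissue macrophages, by 1.38. Mpeg1, a pore former of macrophages, was above background on no pBOO array and was at least 3.71-fold higher. Csf1r, the receptor on which macrophages depend, differed by 0.68 and was not called. All 8 measured neutrophil markers rose, with a median of 2.75, or 2.38 with bounds for genes at background in 1 group, and with mean levels from -1.38 to -1.31 against -4.30 to -3.88. Of these, S100a9 had levels of 1.14, 1.29 and 0.94 against -3.65, -3.37 and -3.35, and rose by 4.58 (SE 0.19; adjusted p = 1.68e-06). Csf3r, the receptor for the neutrophil growth factor, was above background on every tolterodine array and on no pBOO array, and was at least 10.2-fold higher. The part of leukocyte numbers in the rises of the mediators above was not tested.

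Of 17 complement genes, 13 rose and 0 fell, with a median of 1.81, or 1.37 where a gene at background in 1 group is set at its bound. C3 had levels of 2.89, 2.82 and 3.11 with tolterodine and of -2.52, -3.76 and -2.93 without. Cfi, which cleaves active C3, rose by 4.81 (SE 0.41), and Cd55, which protects host cells, by 1.14. C1qc rose by 2.29 and C1qa by 1.97. The other measured members, 4 in number, were not called.

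Genes of antigen presentation rose in 11 of 15 cases and 1 fell, and without RT1-Bb and RT1-Ba, whose values are in doubt, 10 of 13 rose and 0 fell. Ciita, the master regulator of MHC class II, had levels of -2.73, -2.69 and -2.32 against -4.38, -4.64 and -4.37, and rose by 1.88 (SE 0.15; adjusted p = 3.34e-05). RT1-Da rose by 2.10, the invariant chain Cd74 by 1.59 and the protease Ctss by 2.55. RT1-Bb rose by 2.97 and RT1-Ba fell by 4.35, but these genes have near-identical copies. The probes of RT1-Bb disagree, with differences of 2.97 and -4.76, and so neither value is taken as its change. The peptide transporters Tap1 and Tap2, of the class I pathway, differed by 0.19 and 0.26 and were not called. With flagged spots kept, B2m and Psmb10, also of this list, rose by 0.57 (adjusted p = 0.0248) and 1.17 (adjusted p = 0.00106).

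T cell markers moved less. Of 14 measured markers of T and NK cells, 6 rose and 0 fell, with a median of 0.56, or 0.45 with bounds. Cd247, a chain of the T cell receptor complex, rose by 2.06 and Cd3d by 1.13, while the cytotoxic genes Prf1 and Gzmb differed by 0.33 and -0.46 and were not called. Of 2 measured B cell genes, Pou2af1 rose by 1.13 and Pax5 differed by -0.23.

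Genes of the interferon response were mostly not called. Of 21 measured genes, 4 rose and 0 fell, and the median was 0.22. Isg15, a ubiquitin-like protein induced by interferon, had levels of 1.19, 0.29 and 2.14 with tolterodine and of 1.00, 0.79 and 0.96 without, so the groups overlap, and the tolterodine arrays spread over more than the difference of 0.29 (adjusted p = 0.615). The members that rose were Irf8, a factor of myeloid cells, by 1.35, Isg20 by 1.06, Ifit3 by 0.96 and Irf1 by 0.76. The call of Ifit3 was lost without any 1 of the arrays other than tolterodine 2, at 0.67 to 1.01, and that of Irf1 without tolterodine 1, tolterodine 3, pBOO 2 or pBOO 3, at 0.66 to 0.77. Against the arrays titled sham, a comparison that shares the tolterodine arrays, 13 of the same 21 genes were lower and 1 was higher, with a median of -1.0. In that comparison 6.59% of all genes were lower and 17.8% higher. Isg15 stood at 3.72, 2.68 and 3.05 there.

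**Figure D3:**
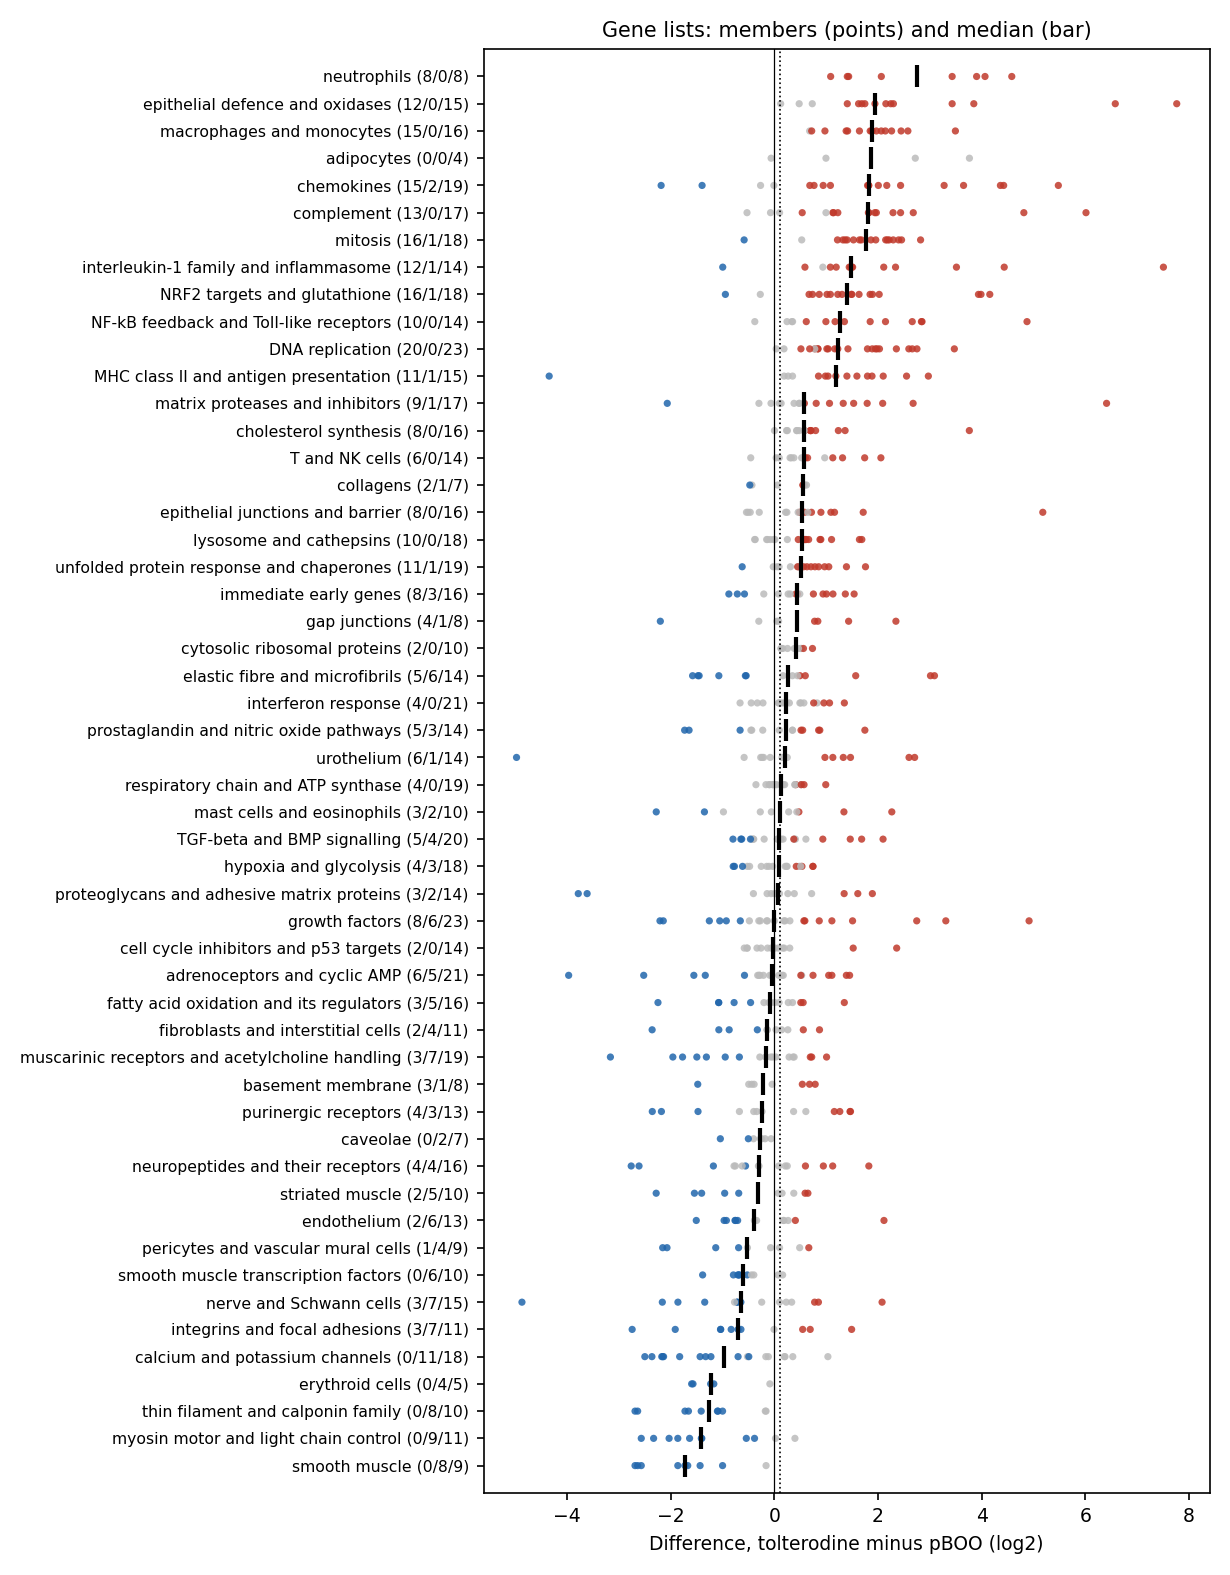
Members (points) and median (black bar) of the 52 gene lists with at least 3 measured members, as differences between tolterodine and pBOO (log2), with red for genes that rose, blue for genes that fell and grey for genes not called. Each label gives the genes that rose, that fell and that were measured, and the dotted line is the median of all genes, 0.11; neutrophil, defence and macrophage lists lie at the top and contractile lists at the bottom.

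Genes of cell division were higher with tolterodine. Of 18 measured genes of mitosis, 16 rose and 1 fell, with a median of 1.77, and of 23 genes of DNA replication, 20 rose and 0 fell, with a median of 1.22. Stretches of the promoters of Birc5 and Ttk, on the plus strand at chr10:103572046-103572145 and chr8:93634524-93634623 of GRCr8 (RefSeq), are shown for letters known from cell cycle promoters, in capitals: TTTGAA, the cell cycle homology region, in Birc5, and CCAAT, which occurs at 2 places in Ttk. Gins1, plus strand, chr3:160184817-160184916, is shown for TTTGGCGC, an E2F site.
Birc5: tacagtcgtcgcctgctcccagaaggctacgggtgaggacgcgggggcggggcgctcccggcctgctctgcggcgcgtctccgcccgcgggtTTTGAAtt
Ttk: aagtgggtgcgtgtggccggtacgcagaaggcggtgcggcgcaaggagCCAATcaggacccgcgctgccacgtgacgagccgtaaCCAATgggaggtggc
Gins1: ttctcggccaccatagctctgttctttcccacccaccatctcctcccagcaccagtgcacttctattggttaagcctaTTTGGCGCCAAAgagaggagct
Birc5, which guides chromosomes in mitosis and blocks cell death, stood at -0.99, -1.04 and -1.14 with tolterodine and at -3.60, -4.22 and -3.80 without, and rose by 2.82 (SE 0.24; adjusted p = 4.48e-05). Ttk, a kinase of the spindle checkpoint, rose by 2.40 (SE 0.22). Gins1, part of the helicase that opens DNA at replication forks, stood at -1.01, -0.96 and -0.64 against -3.49, -3.78 and -3.59, and rose by 2.75 (SE 0.18; adjusted p = 1.55e-05). Of the 15 mitosis genes with a promoter on hand, 10 held TTTGAA (66.7%) and 9 held TTTGAA with CCAAT (60.0%), against 12.3% and 5.03% of tested genes. Either E2F sequence, TTTCCCGC or TTTGGCGC, occurred in 9 of 18 replication genes (50%) and in 2.8% of tested genes. In Gins1 the capitals hold the site on both strands, overlapping. The windows of 9 genes of the thin filament list held the CArG box in 0 cases, and 1.23% of tested genes held it.

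Among the other genes of the cycle, the kinase Cdk1 stood at 2.05, 2.11 and 2.02 with tolterodine and at 0.21, -0.46 and -0.10 without, and its cyclin partners Ccna2 and Ccnb1 rose by 2.29 and 2.21. Rrm2, which supplies nucleotides, rose by 1.98, the loading factor Cdc6 by 2.03 and Pcna by 1.01. Orc1 and Mcm10 were above background on every tolterodine array and on no pBOO array, at least 4.67-fold and 2.00-fold higher. Prc1, a bundler of spindle microtubules, was the mitosis gene that fell, by 0.58, a call that was lost without any 1 of the arrays other than pBOO 2, at -0.64 to -0.44. Of 14 genes of cell cycle arrest and the p53 pathway, 2 rose and 0 fell: Ccng1 by 2.36 (SE 0.13) and Cdkn2a by 1.52. Cdkn1a, the inhibitor p21, differed by 0.16. On the sham arrays Birc5 stood at -0.80, -1.72 and -1.24, values that span the tolterodine levels. Which cells divided was not measured.

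In the urothelium, basal keratins rose and the umbrella cell keratin fell. Krt14 stood at 4.58 and 4.35 on tolterodine 2 and 3, with the spot of tolterodine 1 flagged, and at 1.74, 1.95 and 1.92 on the pBOO arrays, and rose by 2.60 (SE 0.16; adjusted p = 5.13e-05). Krt17, a keratin of basal and injured epithelium, rose by 2.71 (SE 0.20), Krt15 by 1.33 and Krt5 by 0.98. The call of Krt5 was lost without tolterodine 3, at 0.86. Tp63, the transcription factor of basal cells, differed by -0.24 and was not called, and another of its probes differed by 0.73. The fall of Krt20 is given above. With flagged spots kept, the umbrella cell genes Upk2 and Upk1a fell by 1.00 and 0.56, Upk3a differed by 0.32 (adjusted p = 0.259) and Krt19 rose by 1.45. Upk1b differed by -0.58 (adjusted p = 0.0897). Over the list of 14 urothelial markers, 6 rose and 1 fell, with a median of 0.20, so the list as a whole was near the median of all genes.

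In the list of epithelial defence genes and oxidases, 12 of 15 measured members rose and 0 fell, with a median of 1.94. The list includes oxidase genes of phagocytes, and Lcn2 and Ncf1 also stand in the neutrophil list. Slpi, an inhibitor of neutrophil proteases, had levels of 2.71, 2.77 and 2.66 against -1.02, -1.30 and -1.09, and rose by 3.85 (SE 0.19; adjusted p = 3.02e-06). Lcn2, which withholds iron from bacteria, rose by 3.43, and Pigr, the receptor that carries antibodies across epithelium, by 2.30. Cybb and Ncf4, of the phagocyte oxidase, rose by 2.15 and 1.94. Duox1 differed by 0.12 and its partner Duoxa1 by 0.48, and neither was called, in contrast to the pair Duox2 and Duoxa2. Of 16 junction and barrier genes, 8 rose and 0 fell, among them Cldn7 by 1.16 and Tjp3 by 1.71. Cldn3 was above background on every tolterodine array and on no pBOO array, and was at least 10.8-fold higher. It was above on 1 of 3 sham arrays as well.

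In the list of NRF2 targets and glutathione genes, 16 of 18 measured members rose and 1 fell, with a median of 1.39. NRF2 is a factor that switches on antioxidant genes, and the list holds other antioxidant enzymes beside its targets. Nqo1, a quinone reductase, had levels of 3.89, 4.13 and 3.47 with tolterodine and of -0.86, 0.45 and -0.06 without, and rose by 3.99 (SE 0.39; adjusted p = 0.000101). Slc7a11, which imports cystine for glutathione, had levels of 0.58, 0.66 and 0.16 against -3.84, -3.60 and -3.64, and rose by 4.16 (SE 0.22; adjusted p = 5.09e-06). No tolterodine array of either gene reached down to a pBOO array. The synthesis enzymes Gclc and Gclm rose by 1.22 and 1.63, Srxn1 by 2.02, Txnrd1 by 1.85 and the epithelial peroxidase Gpx2 by 3.94. Sod3, the superoxide dismutase of the extracellular space, was the member that fell, by 0.95, and catalase, Cat, differed by -0.27.

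**Figure D4:**
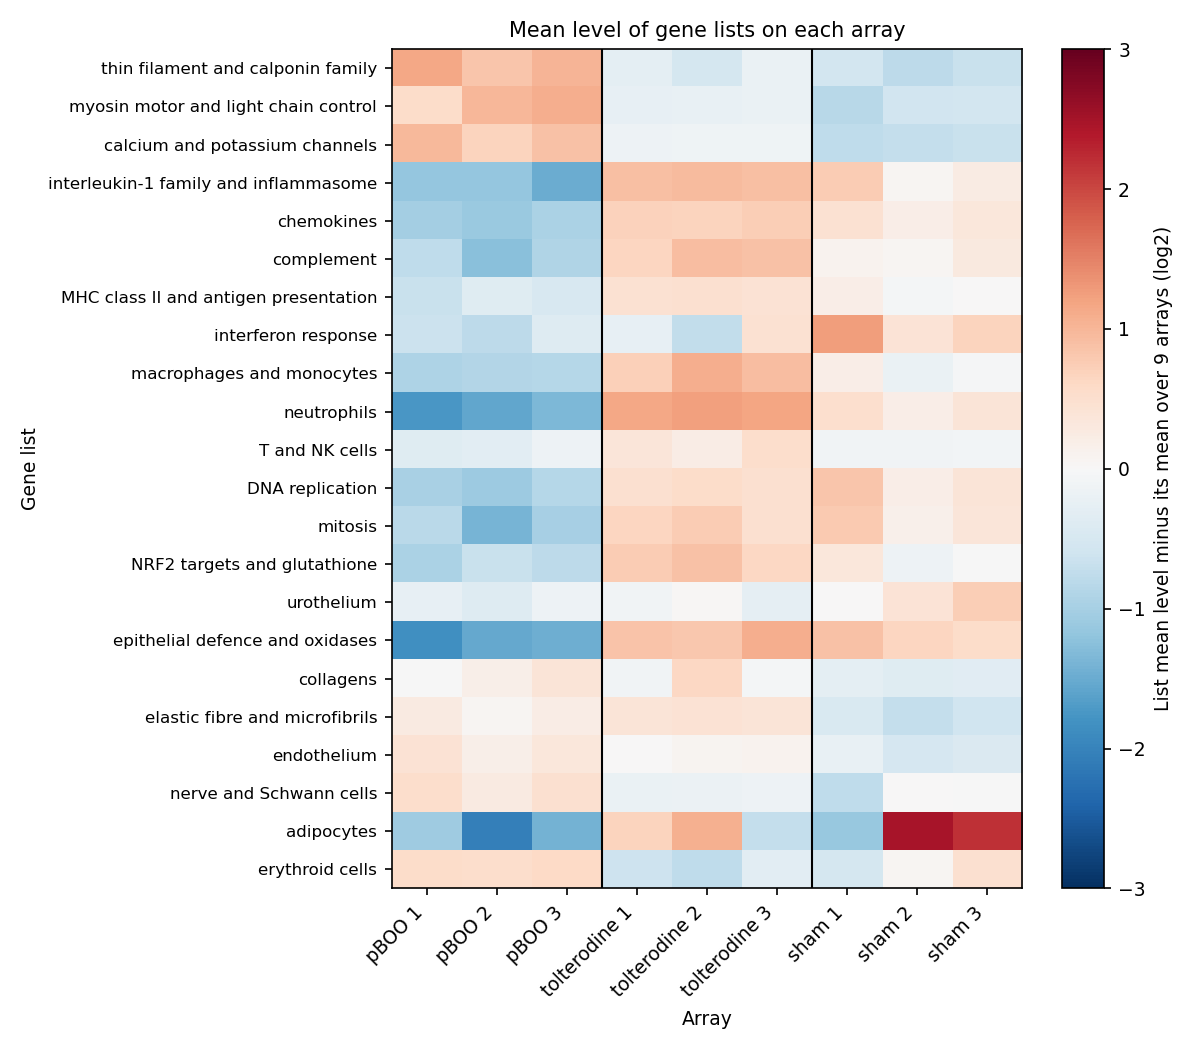
Mean level of 22 gene lists on each of the 9 arrays, minus the mean of the list over all arrays (log2; red above, blue below). The 3 pBOO columns have the lowest interleukin-1, chemokine, cell cycle and NRF2 levels and the highest contractile levels, the tolterodine columns spread most in the adipocyte and interferon lists, and sham 1 is far below sham 2 and 3 in the adipocyte list.

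Of 7 measured fibrillar and associated collagens, 2 rose (28.6%) and 1 fell (14.3%), near the shares of all genes tested, 26.0% and 15.3%. Col1a1 stood at 5.67 and 5.81 on tolterodine 2 and 3, with tolterodine 1 flagged, and at 5.26, 4.98 and 5.30 without, a rise of 0.56 (SE 0.14; adjusted p = 0.0173). Its other probe differed by 0.13. Col1a1 differed by 0.14 after quantile normalization and was not called there, with slide as a fixed block, or without tolterodine 3, at 0.49. With flagged spots kept, Col1a2 and Col3a1 differed by 0.34 (adjusted p = 0.0611) and 0.28 (adjusted p = 0.103). Among elastic fibre genes 5 of 14 rose and 6 fell. Fbn2, a fibrillin of growing tissue, had levels of 0.37, 0.64 and 0.16 against -2.52, -2.94 and -2.64, and rose by 3.09 (SE 0.19; adjusted p = 1.02e-05). Ltbp2, a microfibril protein, rose by 3.01 and Eln, elastin, by 1.57, while Fbln5, which assembles elastin, fell by 1.48, Ltbp1 by 1.58 and Ltbp4 by 1.45. On the sham arrays Fbn2 stood at -2.04, -2.60 and -2.46, near the pBOO levels.

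Among adhesive and proteoglycan genes 3 of 14 rose (21.4%) and 2 fell (14.3%), also near the shares of all genes. Fn1, fibronectin, rose by 1.35 (SE 0.18), the proteoglycan Vcan by 1.61 and Thbs1 by 1.89. Vtn was above background on 1 of 3 tolterodine arrays, at -5.79, -5.87 and -5.79, against -1.27, -2.91 and -1.92 on the pBOO arrays. The remaining 9 members were not called. With flagged spots kept, Tnc, an adhesive protein of tissue repair, fell by 1.79. Proteases rose in 9 of 17 cases and 1 fell: besides Mmp7, the macrophage elastase Mmp12 rose by 2.68, Plaur by 1.79 and the inhibitor Timp1 by 1.06, and Mmp11 fell by 2.07. Mmp3 and Mmp13 were above background on every tolterodine array and on no pBOO array, at least 3.13-fold and 1.55-fold higher. On the sham arrays Mmp3 was above on 1 of 3 and Mmp13 on all 3. Basement membrane genes were split, with 3 of 8 measured higher, among them Agrn by 0.68, and Lamb2 lower, at -1.48. Of 11 fibroblast and interstitial markers, 2 rose and 4 fell, Gsn by 2.36 and Fbln1 by 1.07.

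Of 20 genes of TGF-beta and BMP signalling, 5 rose (25.0%) and 4 fell (20.0%), against 26.0% and 15.3% of all genes tested. Ccn2, a matricellular target of the pathway, had levels of 2.24, 2.24 and 2.32 against 0.48, -0.11 and 0.14, and rose by 2.10 (SE 0.24; adjusted p = 0.000233). Tgfb1 rose by 0.93, the BMP blocker Grem1 by 1.68 and the activin blocker Fst by 1.46, while the inhibitory Smad7 fell by 0.80. Tgfb2 and Tgfb3 differed by -0.43 and 0.41 and were not called. Another probe of Tgfb2 differed by 1.16. Of 23 growth factor genes, 8 rose (34.8%) and 6 fell (26.1%). The ligands of the EGF receptor were on the rising side: Hbegf by 3.31 (SE 0.31) and Areg by 2.75 (SE 0.18), with Ereg at least 6.17-fold higher, while Egfr itself fell by 0.93. Of the insulin-like growth factors, Igf1 rose by 1.51 and Igf2 fell. Igf2 stood at -1.54, -1.65 and -1.18 with tolterodine and at 0.94, 0.54 and 0.77 without, a fall of 2.21 (SE 0.19; adjusted p = 5.43e-05). Igfbp3 and Igfbp5, which bind these factors, fell by 2.14 and 1.26.

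Of 13 endothelial genes, 6 fell and 2 rose. Cldn5, the tight junction protein of endothelium, fell by 0.97 (SE 0.12), and Tek, the angiopoietin receptor, was above background on pBOO arrays only and was at least 2.30-fold lower. Pecam1 and Cdh5 differed by -0.39 and 0.19 and were not called. Lyve1, a receptor of lymphatic endothelium and of some macrophages, had levels of 1.43, 1.59 and 1.51 against -0.41, -0.76 and -0.65, and rose by 2.11 (SE 0.12; adjusted p = 7.66e-06). Of 9 pericyte and mural cell genes, 4 fell, among them Mcam by 2.07, and 1 rose. Of 15 nerve and Schwann cell genes, 7 fell and 3 rose, with mean levels of the list from -2.36 to -2.30 with tolterodine and from -1.89 to -1.63 without. The median difference of this list was -0.65. Of the 16 measured with flagged spots kept, 6 fell and 4 rose, with a median of -0.073. Ngfr, the low-affinity neurotrophin receptor, fell by 1.86 (SE 0.21) and Prph, a filament of peripheral neurons, by 2.16 (SE 0.59), while the tubulin Tubb3 rose by 2.08. Without tolterodine 3 the call of Prph was lost, at -2.04. Sox10 and S100b, of Schwann cells, differed by 0.33 and -0.24. The part of these nerve and muscle cells in the falls of their receptors was not tested.

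Among settings that test the same genes, other than the exchange of names, slide as a fixed block kept the fewest calls. With it, which leaves tolterodine 3 without weight and rests on sham 1, 3053 of the 4564 calls were kept in the same direction and 58 turned sign. With slide as a random block 3692 were kept and 0 turned. The consensus correlation of arrays within a slide was 0.626 in that fit, whereas the main fit treats arrays of a slide as independent. Among genes named above, the calls of Adra1d, Arrb1, Gnaq, Ccl19, Cxcl9, Fbln1 and Obp3 were lost with slide as a fixed block, at differences of -1.28, 0.33, -0.52, -1.62, 0.39, -0.43 and -4.03. The medians of the contractile, inflammatory, cell cycle and NRF2 lists kept their sign under all scaling, filter, slide and leave-one-out settings. Of 11049 genes, 2693 (24.4%) differed between the tolterodine arrays and those titled sham, with 1965 higher and 728 lower. That is the result if the names of pBOO and sham are exchanged. Of the 4564 calls, 1242 would then be kept in the same direction and 1468 would turn sign. List medians would be 0.25 for the thin filament, 0.44 for the myosin motor and 0.43 for the interleukin-1 family. They would be 0.22 for mitosis, -0.021 for DNA replication and 0.48 for NRF2 targets and glutathione. Of 18 mitosis genes 0 would be called, and of 23 replication genes 1. In the thin filament and myosin motor lists, 2 and 4 genes would be higher and 0 lower.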

How the data were processed

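RNA of rat bladder on 9 arrays (3 arrays titled pBOO + tolterodine, 3 titled pBOO and 3 titled sham) was measured on single-colour Agilent slides with 42877 spots an array. The deposited files are scanner output; their processed signal is an intensity on a linear scale, background-subtracted by the authors' Feature Extraction software, whose version is 11.0.1.1 per the file headers and 9.1 per the submitters' processing notes. The other columns used, the deposited flags for spots above background and for outliers, are 0 or 1 per the file headers.

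Signals were set to log2 and reduced by each array's 75th percentile over non-control spots. Outlier-flagged spots were set to missing, spots of a probe averaged, and probes kept where above background on at least 3 of 9 arrays. The brightest kept probe stood for its gene, with at least 2 unflagged arrays in each group. Symbols came from RefSeq (GRCr8) by accession: 18005 of 30367 probes had 1 symbol and 12362 none. The array grid names an older build, so no coordinates were taken from it. Of 11638 genes, 589 were lost to flags, among them very bright ones, which leaves 11049.

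All 9 arrays entered 1 fit (limma 3.58.1, R 4.3.3; lmFit and eBayes, two-sided, Benjamini-Hochberg adjustment at 0.05), which was tested on simulated data with 200 changed genes. The number of arrays limits the precision. Bounds, written "at least", were used for genes above background on all arrays of one group and none of the other. Where such a gene was dim on the sham arrays as well, it passed the filter only through the group where it was high. Alternatives concerned scaling, background, dim probes, flags, probes of a gene, slide, replicate number, each array left out and the exchange of names.

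Named genes were the 12 largest rises and falls among called genes measured on all 6 arrays whose groups did not overlap. The rule also took the 5 highest bounds each way and the 3 of smallest adjusted p in each of 54 lists (39 pathways, 15 cell types). The muscarinic and β-adrenergic receptors were taken whatever their values. The other genes named were chosen after their values were seen. A few genes that the rule names are not reported here. Members and lists were chosen with earlier results of these data known. Pressure experiments on cultured cells were not analysed here.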

Additional observations from a re-analysis of the deposited data

How the results depend on the processing

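The direction of the drug effect rests on the titles, the groups share no slide, and 3 arrays a group limit the precision. Of 4564 calls, the count ran from 3396 (without pBOO replicate 3) to 4153 (without tolterodine replicate 3) when 1 array was left out, with 2232 to 2535 higher, 1164 to 1665 lower and 1676 to 1811 of at least 2-fold. The count of at least 2-fold was 859 after normexp with quantile normalization, against 1815. With the names of pBOO and sham exchanged, 2693 genes differed, 728 were lower and 1008 reached 2-fold. With every kept probe tested, an alternative chosen after seeing the data, 7904 of 20476 probes differed, 5203 higher and 2701 lower, and 3103 reached 2-fold. Without tolterodine 3 and sham 1, also chosen after seeing the data, 5420 genes differed. The other scaling, filter, flag and slide settings gave 4129 to 4880 calls.

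Deviations of same-numbered tolterodine and pBOO arrays correlated at -0.0565, 0.178 and -0.0462. Differently numbered arrays were not set beside them, so these values do not settle whether the replicate numbers pair the arrays. With the replicate block 4226 genes differed, of which 4095 were among the 4564.

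Values in parentheses are those reached after a change of sign. After quantile normalization the sign turned for Cdkn1a (-0.18) and the median of mast cells and eosinophils (-0.019). After normexp with quantile normalization the sign turned for Cdkn1a (-0.19), the median of urothelium (-0.0017) and the median of mast cells and eosinophils (-0.038). Without a filter on dim probes the sign turned for the median of neuropeptides and their receptors (0.10). With probes above background on all 9 arrays the sign turned for the median of purinergic receptors (0.49) and the median of neuropeptides and their receptors (0.085). With flagged spots kept the sign turned for the median of mast cells and eosinophils (-0.059). With the mean of all probes of a gene the sign turned for Kcnma1 (-0.17), Rela (0.35), Tgfb2 (0.36) and Tp63 (0.035). With slide as a fixed block the sign turned for Pax5 (0.0012), Retn (-0.99), Adipoq (-2.29), Cfd (-1.24), Wt1 (-2.24), Bnc1 (-1.98), Chrm4 (-0.17), Chrm5 (-0.33), Duox1 (-0.26), Il33 (0.079), Pecam1 (0.049), Tgfb2 (0.21), the median of purinergic receptors (0.45), the median of basement membrane (0.034), the median of mast cells and eosinophils (-1.28), the median of adipocytes (-1.11) and the median of mesothelium (-2.11). With slide as a random block the sign turned for Adipoq (-0.20), Cfd (-0.39), Wt1 (-1.06), Bnc1 (-1.04), Duox1 (-0.018), the median of purinergic receptors (0.15), the median of mast cells and eosinophils (-0.86), the median of adipocytes (-0.10) and the median of mesothelium (-1.05). With only flags of the spot itself the sign turned for the median of mast cells and eosinophils (-0.059). Without tolterodine 3 and sham 1 the sign turned for Bnc1 (-0.034), Chrm2 (0.12), Cat (0.0099), Duox1 (-0.16) and Isg15 (-0.18). With 1 array left out, values that changed sign ran for Sox10 from -0.044 to 0.56, for Bnc1 from -0.034 to 0.41, for Chrm2 from -0.20 to 0.12, for Cat from -0.51 to 0.0099, for Duox1 from -0.16 to 0.33 and for Isg15 from -0.18 to 0.75. Where a flagged spot leaves different probes of a gene on different arrays, the mean of probes also carries the difference in level between probes. For Rela it lies outside the differences of both probes, -0.38 and -0.03. For the other values the cause was not tested.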

Other observations

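Part of the genes of cholesterol synthesis, protein folding and the lysosome rose with tolterodine. Of 16 measured genes of cholesterol synthesis, 8 rose and 0 fell, with a median of 0.58. Idi1, an isomerase of the pathway, rose by 1.36, Cyp51 by 1.23 and Hmgcs1 by 0.58. In the unfolded protein response 11 of 19 genes rose and 1 fell, with Sdf2l1 higher by 1.76 and Pdia4 by 0.97. Of 18 lysosomal genes, 10 rose and 0 fell, led by Ctsz with a rise of 1.69. Of 16 genes of fatty acid oxidation, 3 rose and 5 fell. Ppargc1a, the coactivator that drives mitochondrial growth, was above background on pBOO arrays only, through which alone it passed the filter. It was at least 1.17-fold lower, and Cpt1b, the importer of fatty acids in muscle, fell by 1.08.

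Receptors for ATP, adenosine and peptides were split. Of 13 purinergic genes, 4 rose (30.8%) and 3 fell (23.1%), against 26.0% and 15.3% of all genes tested. P2ry12 and P2ry6, receptors found on myeloid cells, rose by 1.47 and 1.46, and Adora2b fell by 1.47. Of 16 neuropeptide genes, 4 rose (25%) and 4 fell (25%). The opioid precursor Penk rose by 1.82 and galanin, Gal, by 1.13, while Tacr1, the receptor of substance P, fell by 1.18. Tacr3 was at least 3.79-fold lower, but it passed the filter for dim probes only through the pBOO arrays. Of 16 immediate early genes, 8 rose and 3 fell, with Myc higher by 1.37.

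Red cell genes fell in 4 of 5 cases, Alas2 by 1.60 and Hba-a1 by 1.57. Of 10 striated muscle genes, 5 fell and 2 rose. Of 4 adipocyte genes, 0 were called. With flagged spots kept, the fatty acid carrier Fabp4 was called, with levels of 3.36, 3.42 and 3.43 against 1.98, 2.44 and 2.24, and rose by 1.18 (SE 0.16; adjusted p = 0.000563). Adipoq stood at -2.15, -1.54 and -4.48 with tolterodine and at -4.86, -8.13 and -6.47 on the pBOO arrays.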
